A study of Homo sapiens with 21 samples.

Results

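Kinesins are the motor proteins that pull cargo along microtubules, push spindle poles apart or take microtubules down from their ends. The messenger RNA of 29 kinesin genes was followed in IMR90 cells, a line of normal human lung fibroblasts, that were either dividing or made senescent by irradiation. The members were all genes whose symbol is KIF or KIFC followed by a number and at most 1 letter and whose normalised read count reached 10 in 3 or more of the 21 libraries. Of 37 such symbols among the 16383 genes in the deposited table, 29 met the minimum and 8 did not. The members were divided by textbook function into 10 mitotic kinesins and 19 other kinesins. KIF2A, which acts both at spindle poles and on interphase microtubules, was placed among the other kinesins, so counts of mitotic kinesins leave it out.

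The study sequenced poly(A) RNA from 7 groups of 3 libraries. Proliferating cells were not irradiated, and the labels give them no treatment. All other 6 groups were irradiated, then given siRNA (5 nM) with the transfection reagent DharmaFECT, first on day 4 and again on day 7, and were harvested on day 10 counted from irradiation. Their siRNAs were non-targeting #3 (NT3), non-targeting #4 (NT4), or directed against CCND1 (cyclin D1), against CDK4, against CDK6, or against CDK4 and CDK6 together (dual knockdown). The cells are labelled wild type apart from the knockdowns, and all 7 groups come from 1 cell line. Whether the dual knockdown received more siRNA in total is not given in the sources used here. Because the proliferating cells received neither irradiation nor, by their label, siRNA, the effects of irradiation, transfection and time cannot be told apart in comparisons with them. The labels do not say whether the 3 libraries of a group came from separate cultures, so p-values measure the spread between libraries, which may be technical.

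As background, kinesins share a motor domain that uses ATP to step along microtubules, and their tails decide what they carry. Mitotic kinesins are made mainly in G2 and M phase, build the bipolar spindle, align chromosomes and complete cytokinesis, and are nearly absent from cells that have left the cycle. Transport kinesins work in interphase and carry vesicles, mitochondria, mRNA and, in cilia, intraflagellar cargo. Cyclin D1 with CDK4 or CDK6 phosphorylates the retinoblastoma family of repressors, which releases E2F-driven transcription on the way to S phase. Many G2 and M genes are repressed in quiescent or arrested cells by the DREAM complex, which binds an element called the CHR, often beside CCAAT boxes bound by NF-Y.

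The libraries held between 12892442 and 21822152 reads in listed genes. Each targeted gene was low in its own knockdown. CCND1 was left at 11.8% of the mean of the 6 non-targeting libraries, CDK4 at 8.67% and CDK6 at 16.4%, and the dual knockdown left CDK4 at 9.41% and CDK6 at 20.6% (exact permutation test, two-sided p = 0.0119 for each, the smallest that 3 against 6 libraries allow). The fibroblast genes COL1A1, COL1A2 and VIM were high in all groups, with COL1A1 group means from 209496 to 364839 normalised reads. Markers of other cell types were mixed. The 4 immune markers summed to 654 to 688 in proliferating, 888 to 990.3 in NT3, 1266 to 1415 in NT4 and 1495 to 1604 in CDK4-knockdown libraries, nearly all of it CD68, while PTPRC and CD3E had group means of at most 5.87 and 0.809. The 5 epithelial markers had summed group means of 1248 (CDK6 knockdown) to 2110 (proliferating), nearly all KRT8 and KRT18, with EPCAM and SFTPC at most at 37.2 and 2.14. The 4 endothelial markers had summed group means of 8.05 in proliferating cells, 43.5 in NT3, 38.5 in NT4 and 17.4 to 33.9 in the knockdowns, with CDH5 at most at 1.09. Their part in the results was not tested. NT3 replicate 3 stood apart from the rest: across the 11579 genes tested, the SD of its log2 deviations from its group mean was 0.34, against 0.19 to 0.26 in the other 20 libraries. It also had the fewest reads in listed genes (12892442). It was the lowest of the 6 non-targeting libraries for 13 of 19 other kinesins and for 4 of 10 mitotic kinesins. Among the 18 irradiated libraries it was the lowest for 12 of 19 other and 0 of 10 mitotic kinesins. The shares of all genes were not counted. In bulk RNA, fewer cells of a kind and less RNA per cell cannot be told apart.

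All 10 mitotic kinesins were lower in the senescent controls than in proliferating cells. Every one of the 18 irradiated libraries lay below every proliferating library for each of the 10 genes. The same held for 4 of 19 other kinesins, and the share of all genes was not counted. Over the 6 non-targeting libraries, their mean levels were 11.4% to 27.7% of the proliferating mean, with a median of 14.7%. The change was tested with limma on log2 of the normalised count plus 1, with the mean of the NT3 and NT4 groups as control and Benjamini-Hochberg adjustment over all 11579 genes tested. The threshold for a call was an adjusted p of 0.05. Of all genes tested, 68.6% passed in this comparison (36.1% lower and 32.6% higher), and the median log2 fold change was -0.03, against -2.77 over the mitotic kinesins.

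KIF11 (Eg5), the tetrameric motor that slides antiparallel microtubules to push the poles apart, had 2285, 2306 and 2395 normalised reads in the 3 proliferating libraries and 200.2 to 311, median 272, in the 6 non-targeting libraries (log2 fold change -3.14, SE 0.13, adjusted p = 7.47e-15). KIF15, which holds the spindle bipolar together with KIF11, had 598, 581 and 585 in the proliferating and 51.6 to 113.2, median 77.8, in the non-targeting libraries (log2 fold change -2.95, SE 0.24, adjusted p = 3.14e-10). KIF11 kept 11.4% of its proliferating level and KIF15 13.2%, the lowest share and a share close to it among the 10 genes.

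The chromosome-arm motors push chromosomes toward the spindle equator. KIF4A, which also organises chromosome axes and the central spindle, had 1260.4, 1341 and 1379 in the proliferating and 183 to 242, median 213, in the non-targeting libraries (log2 fold change -2.66, SE 0.15, adjusted p = 1.34e-12). Its count is uncertain to the extent that reads are shared with KIF4B, a near-identical retrogene that is not among the 37 symbols listed. KIF22 (Kid), which binds DNA directly, had 1240.3, 1254 and 1376, against 227 to 394, median 280.5 (log2 fold change -2.14, SE 0.11, adjusted p = 3.43e-13).

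Of the motors that act on microtubule ends, KIF2C (MCAK), the depolymerase that corrects wrong attachments at centromeres, had 1475, 1463 and 1636 in the proliferating and 169 to 211, median 202, in the non-targeting libraries (log2 fold change -2.97, SE 0.19, adjusted p = 9.72e-12). KIF18A, which dampens the swinging of chromosomes at the metaphase plate, had 546, 551 and 617, against 139.6 to 172, median 158 (log2 fold change -1.85, SE 0.13, adjusted p = 5.17e-11). KIF18A kept 27.7% of its proliferating level, the highest share among the 10, and KIF22 the next with 22.9%.

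The midzone and cytokinesis have 4 motors among the members. KIF14, which recruits citron kinase, had 797, 856 and 860.1 in the proliferating and 95.7 to 138, median 115.4, in the non-targeting libraries (log2 fold change -2.84, SE 0.15, adjusted p = 1.6e-13). KIF20A (MKLP2), which carries the chromosomal passenger complex to the central spindle, had 2598, 2499 and 2633, against 310.4 to 368, median 343 (log2 fold change -2.92, SE 0.12, adjusted p = 4.76e-15). KIF20B, which acts late in cytokinesis, had 1458, 1639.8 and 1609, against 233 to 258, median 237 (log2 fold change -2.69, SE 0.11, adjusted p = 2.58e-15). All 3 genes kept less than their proliferating level in each library, with shares of 13.9%, 13.2% and 15.4%. KIF23 (MKLP1), the motor subunit of centralspindlin, had 2214, 2312 and 2370.3, against 397 to 499, median 458 (log2 fold change -2.34, SE 0.09, adjusted p = 1.1e-15) and kept 19.8%.

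**Figure D1:**
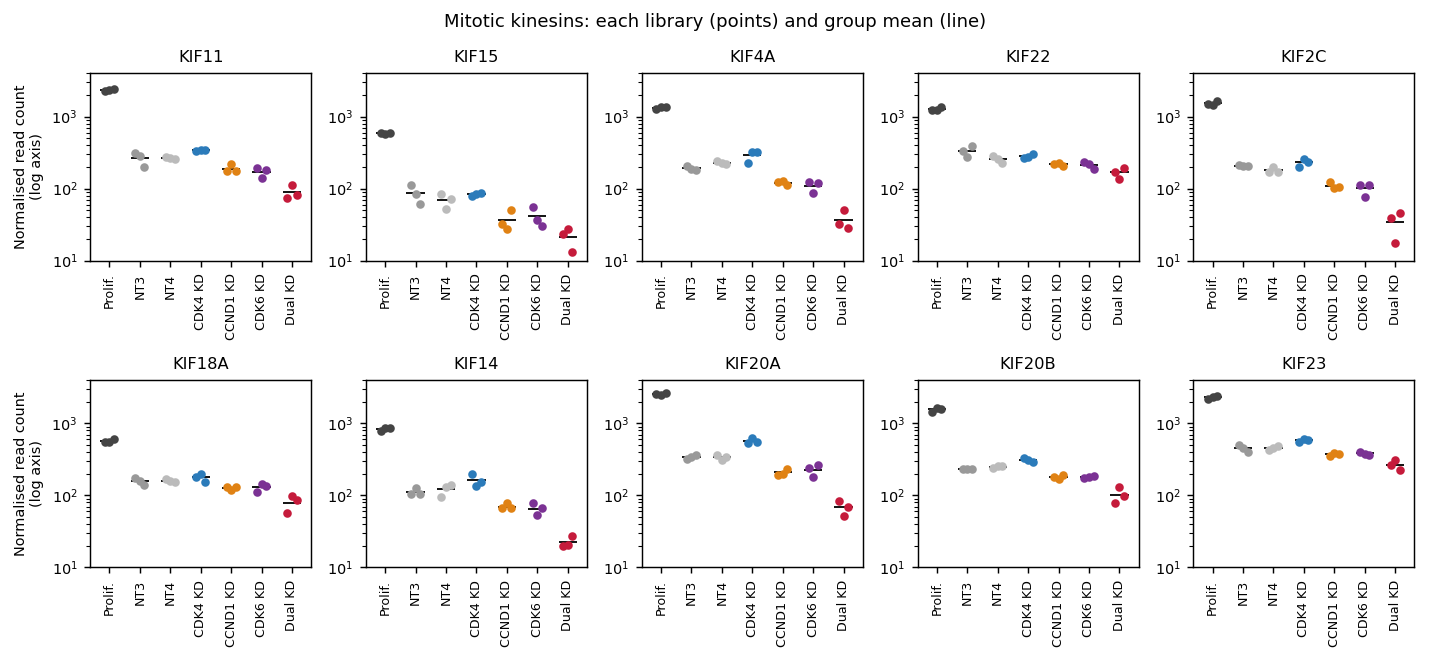
Normalised read counts (log axis, the same in every panel) of the 10 mitotic kinesins in each library (points) and their group means (lines) for proliferating cells and the 6 irradiated groups. In every panel the proliferating libraries lie above all 18 irradiated libraries, and the dual knockdown has the lowest mean.

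The other genes of the spindle moved with these motors. Of 17 tested mitotic partners (spindle, passenger and checkpoint proteins), 17 were lower (36.1% of all genes), with a median log2 fold change of -2.68. CENPF, a kinetochore protein, changed by -3.31 and AURKB, the passenger kinase, by -3.19. All 11 cycle markers were lower too (the same 36.1% of all genes). Their summed count was 32925 to 35626 in proliferating libraries and 4507 to 5259 in NT3. The part that the share of dividing cells plays in these results was not tested.

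Promoter sequences are shown because the mitotic motors moved together. The windows are RefSeq's for GRCh38.p14, 250 bases before to 50 bases after the annotated gene start; all 10 mitotic and 13 of 19 other kinesins had one. They were searched on both strands for TTTGAA (CHR), for TTCGAA (a CHR variant), for CCAAT and for the E2F words TTGGCGC and TTCCCGC. A gene counted once, if any of its windows had a match. The CHR word TTTGAA occurred in 7 of 10 mitotic windows (KIF11, KIF14, KIF15, KIF18A, KIF20B, KIF23 and KIF4A) and in 1 of 13 other windows (KIF5B). It occurred in 18.2% of all 27305 genes with a RefSeq window, which are more than the 16383 genes measured here. CCAAT occurred in 8 of 10 mitotic windows, in 3 of 13 other windows (KIF1B, KIF3B and KIF5B) and in 39.7% of all. Both words stood in 6 of 10 mitotic windows, 1 of 13 other windows and 7.26% of all. An E2F word occurred in 2 of 10 mitotic windows (KIF15 and KIF18A, in the latter as 2 overlapping matches on opposite strands), 3 of 13 other windows and 10.96% of all. A match is a description of letters, and no binding was measured.

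The 100 bases before the gene start are given 5′ to 3′ on the gene's strand, in GRCh38.p14, with CHR, CHR-variant and CCAAT matches in capitals. A match on the opposite strand appears as its reverse complement, TTCAAA for the CHR. The CCAAT box then appears as ATTGG. KIF11, KIF4A, KIF23 and KIF18A show the pair of words, KIF22 the variant, KIF20A a pair of CCAAT boxes without a CHR, and KIF3B, a transport motor, is shown for contrast. KIF22 has 2 windows in the table, of which the one that starts farther upstream was used.
KIF11 (chr10:92593030-92593129, plus strand): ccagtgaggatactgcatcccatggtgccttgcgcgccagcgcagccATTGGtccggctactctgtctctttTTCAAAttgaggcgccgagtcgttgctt
KIF4A (chrX:70290004-70290103, plus strand): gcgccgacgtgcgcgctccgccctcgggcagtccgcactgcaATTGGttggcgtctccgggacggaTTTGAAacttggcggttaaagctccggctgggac
KIF23 (chr15:69414249-69414348, plus strand): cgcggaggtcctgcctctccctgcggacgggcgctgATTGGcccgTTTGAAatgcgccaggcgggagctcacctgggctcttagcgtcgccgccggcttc
KIF18A (chr11:28108157-28108256, minus strand): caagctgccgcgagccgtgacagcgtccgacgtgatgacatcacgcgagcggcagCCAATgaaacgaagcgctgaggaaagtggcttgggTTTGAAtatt
KIF22 (chr16:29790651-29790750, plus strand): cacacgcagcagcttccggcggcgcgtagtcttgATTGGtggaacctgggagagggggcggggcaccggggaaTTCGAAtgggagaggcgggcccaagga
KIF20A (chr5:138179012-138179111, plus strand): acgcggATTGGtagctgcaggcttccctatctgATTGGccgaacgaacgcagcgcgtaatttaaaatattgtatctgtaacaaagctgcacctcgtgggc
KIF3B (chr20:32277551-32277650, plus strand): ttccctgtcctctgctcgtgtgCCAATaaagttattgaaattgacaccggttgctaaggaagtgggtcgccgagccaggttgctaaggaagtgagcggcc
In KIF11, KIF4A and KIF23 the CCAAT box lies before the CHR on the opposite strand, and in KIF18A on the same strand as the gene. KIF20A and KIF2C had no TTTGAA or TTCGAA in the window, and KIF2C had no CCAAT or E2F word either. Their log2 fold changes in dual knockdown were -2.33 and -2.58, against a median of -1.71 over the 10 mitotic kinesins. Whether the words go with the changes was not tested.

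**Figure D2:**
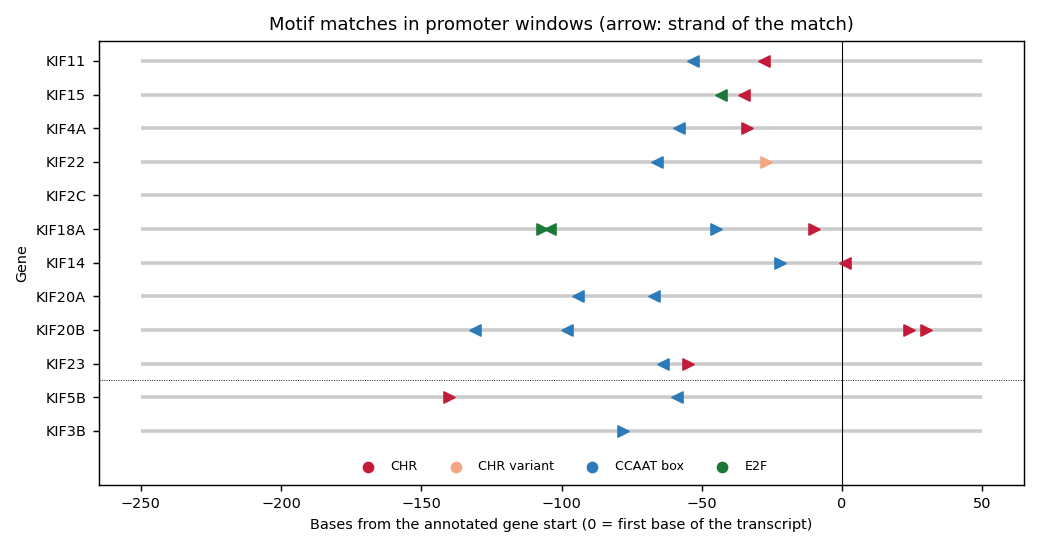
Positions of the searched words in the promoter windows of the 10 mitotic kinesins and of KIF5B and KIF3B, in bases from the annotated gene start; the arrow gives the strand of the match. CHR matches lie within 60 bases upstream or 50 bases downstream of the start in 7 mitotic windows, and at -140 in KIF5B.

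The other kinesins did not move one way in the senescent controls. Of 19, 6 were higher (background 32.6%), 5 were lower (background 36.1%) and 8 did not pass, and the median log2 fold change was -0.04. The 3 largest rises were those of KIF1A, KIF9 and KIF21A, and the 3 largest falls those of KIF17, KIF21B and KIF2A.

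KIF1A, an axonal carrier of synaptic vesicle precursors, was listed at 0, 0 and 0.886 in the proliferating libraries, 24.9, 36.9 and 20.6 in NT3 and 23.4, 14.6 and 11.5 in NT4. These stand for 1 read in the 3 proliferating libraries and 141 reads in the 6 non-targeting libraries, a normalised ratio of 73.5 with an exact 95% interval of 12.98 to 2924 that covers counting error only (limma adjusted p = 3.79e-09). KIF1A reached at most 36.9 normalised reads in any library. No proliferating library reached the minimum count for membership, so KIF1A was kept through irradiated libraries alone. Its limma p-value and the interval do not allow for that selection.

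KIF9, a motor of motile cilia, had 41.9, 34.1 and 45.2 in the proliferating, 73.7, 79.5 and 93.4 in the NT3 and 77.9, 70.1 and 97.1 in the NT4 libraries (log2 fold change 1.003, SE 0.16, adjusted p = 1.3e-05). KIF21A, which pauses microtubule growth at the cell cortex, had 13.1, 15.96 and 13.3 in the proliferating libraries, 36.3, 35.5 and 40.05 in NT3 and 18.9, 21.4 and 16.4 in NT4 (log2 fold change 0.87, SE 0.24, adjusted p = 0.0028). All NT3 libraries of KIF21A lay above all NT4 libraries, and with NT4 alone as control the rise did not pass (log2 fold change 0.39, adjusted p = 0.219).

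KIF17, the homodimeric kinesin-2, had 217, 186 and 237 in the proliferating libraries and 88.6 to 129, median 103.2, in the non-targeting ones (log2 fold change -1.04, SE 0.11, adjusted p = 3.74e-08). KIF21B, a close relative of KIF21A, had 40.2, 48.95 and 61.1, against 14.5 to 30.8, median 25.6 (log2 fold change -1.03, SE 0.26, adjusted p = 0.0014). KIF2A, the depolymerase of spindle poles and of interphase microtubules, had 1171, 1315 and 1318, against 660.2 to 974, median 802 (log2 fold change -0.66, SE 0.07, adjusted p = 1.88e-08). In all 3 genes the proliferating libraries lay above every non-targeting library.

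Smaller changes that passed were those of KIF16B (0.45), KIF3B (0.45), KIF1C (0.38), KIFC3 (-0.47) and KIF13A (-0.34). KIF1C did not pass with NT3 alone as control, and KIF13A did not with NT4 alone. KIF5B, the ubiquitous heavy chain of kinesin-1, had 6649, 7058 and 6963 in the proliferating and 5687 to 7284, median 6845, in the non-targeting libraries, and its groups overlapped (log2 fold change -0.04, SE 0.06, adjusted p = 0.584). KIF3A, the partner of KIF3B in heterotrimeric kinesin-2, overlapped as well, with 397, 428 and 391 against 364 to 481, median 438 (log2 fold change 0.09, SE 0.09, adjusted p = 0.401). Its partner KIF3B had 1344, 1432 and 1456 against 1501 to 2169, median 1981, with every non-targeting library above the proliferating ones.

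**Figure D3:**
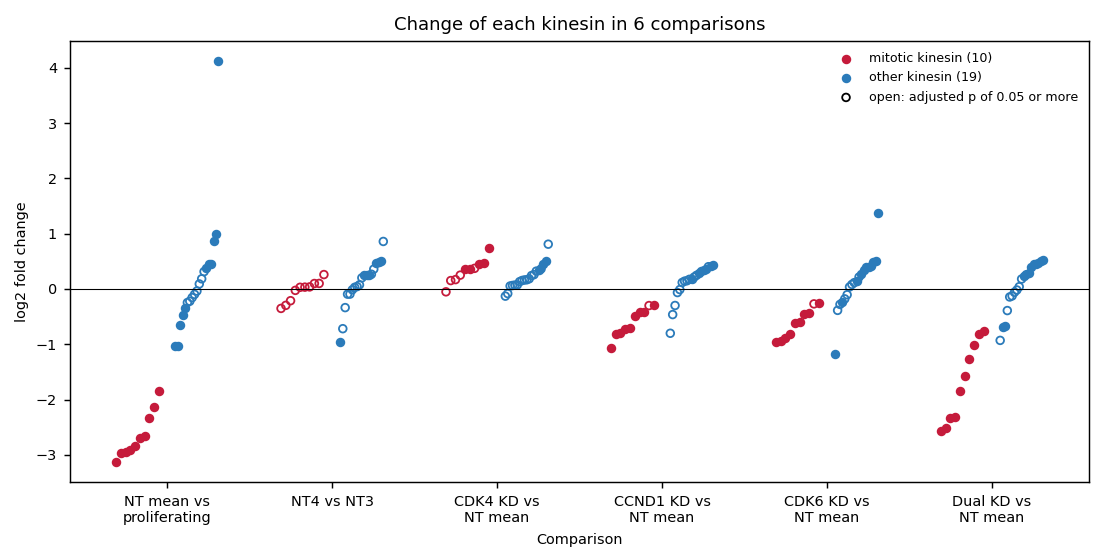
log2 fold change of each of the 10 mitotic and 19 other kinesins in 6 comparisons; filled points passed an adjusted p of 0.05 and open points did not. The mitotic kinesins lie below 0 in the senescent controls and in the CCND1, CDK6 and dual knockdowns, and mostly above 0 in the CDK4 knockdown, while the other kinesins lie on both sides.

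The non-targeting siRNAs differed from each other in 7 of 19 other kinesins and in 0 of 10 mitotic kinesins. In NT4 against NT3, where 27.8% of all genes passed (14.7% higher and 13.1% lower), no mitotic kinesin passed in limma, 1 had an unadjusted p under 0.05, and edgeR and DESeq2 each called 1 lower. Of the other kinesins, 6 were higher in NT4 and 1, KIF21A, was lower (log2 fold change -0.95, SE 0.27, adjusted p = 0.013), a call lost without NT4 replicate 3 (-0.86, adjusted p = 0.0557). KIF1C, which carries vesicles and mRNA to the cell edge, had 4212, 4364 and 3581 in NT3 and 5823, 5707 and 5682 in NT4 (log2 fold change 0.51, SE 0.06, adjusted p = 2.44e-06). KIF13B, a vesicle motor, had 678, 663 and 453 in NT3 and 834, 819 and 819 in NT4 (log2 fold change 0.49, SE 0.10, adjusted p = 0.0013), and KIF13A, an endosome motor, 1412, 1508 and 1032 in NT3 and 1759.5, 1776 and 1899 in NT4 (log2 fold change 0.48, SE 0.09, adjusted p = 0.000721). All NT4 libraries lay above all NT3 libraries for these 3 genes. Without NT3 replicate 3, the count of other kinesins fell from 6 higher and 1 lower to 3 higher and 1 lower. The difference between the controls bears on each knockdown result for these genes.

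CCND1 knockdown lowered 9 of 10 mitotic kinesins against the mean of both controls, where 31% of all genes passed (14.4% lower and 16.7% higher). The median log2 fold change was -0.59 over the 10 genes and -0.01 over all genes. KIF18A did not pass, with 132, 121 and 132 in the CCND1 knockdown against 139.6 to 172, median 158, in the controls (log2 fold change -0.30, SE 0.13, adjusted p = 0.0914); without NT3 replicate 3 all 10 were lower.

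The largest fall was that of KIF15, with 31.9, 27.7 and 50.1 against 51.6 to 113.2, median 77.8 (log2 fold change -1.06, SE 0.24, adjusted p = 0.0017). KIF2C had 122, 101.4 and 105.999 against 169 to 211, median 202 (log2 fold change -0.81, SE 0.19, adjusted p = 0.0031), and KIF4A 124, 127 and 111.9 against 183 to 242, median 213 (log2 fold change -0.79, SE 0.15, adjusted p = 0.000534). All 3 knockdown libraries lay below all 6 controls for these 3 motors.

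Of the midzone motors, KIF14 had 65.9, 77.9 and 66.7 (log2 fold change -0.72, SE 0.15, adjusted p = 0.000731), KIF20A 192, 202 and 235 (-0.70, adjusted p = 0.000132) and KIF20B 182, 168 and 191 (-0.42, adjusted p = 0.0044). KIF23 fell least among those that passed, with 348, 388 and 382 against 397 to 499, median 458 (log2 fold change -0.28, SE 0.09, adjusted p = 0.0172), and did not pass without CCND1 knockdown replicate 1 (log2 fold change -0.24, adjusted p = 0.1). KIF11 had 177, 217 and 175 and KIF22 223, 225 and 207, with log2 fold changes of -0.48 and -0.41; 1 KIF11 library lay within the range of the controls, and KIF22 did not pass with NT4 alone (log2 fold change -0.24, adjusted p = 0.23).

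CDK6 knockdown gave a like picture: 9 of 10 mitotic kinesins were lower, at a background of 41.9% (20.8% lower and 21.1% higher), and the median was -0.61 against -0.01 over all genes. KIF18A was again the gene that did not pass, with 111.96, 145 and 137 (log2 fold change -0.27, SE 0.13, adjusted p = 0.109). KIF2C had 112.98, 77.3 and 112.1 (log2 fold change -0.95, SE 0.19, adjusted p = 0.000462), and KIF4A 125, 85.7 and 121 (log2 fold change -0.94, SE 0.15, adjusted p = 4.72e-05), both below all 6 controls. KIF15 had 55.98, 37.3 and 30.7 (log2 fold change -0.89, SE 0.24, adjusted p = 0.0044), with 1 library inside the control range.

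KIF14 had 77.4, 54.04 and 66.1 (-0.82), KIF11 196, 139 and 183 (-0.62), KIF20A 244, 181 and 262 (-0.59) and KIF20B 174, 178 and 187 (-0.43) on the log2 scale, and all 4 lay wholly below the controls. KIF22 had 237, 218 and 186 (log2 fold change -0.45, SE 0.11, adjusted p = 0.0032) and did not pass with NT4 alone (log2 fold change -0.27, adjusted p = 0.126). The fall of KIF23 rested on a small difference, 402, 381 and 364 against 397 to 499, median 458 (log2 fold change -0.25, SE 0.09, adjusted p = 0.0281), and did not pass with either control alone, nor without NT3 replicate 1, NT4 replicate 3 or CDK6 knockdown replicate 2 or 3 (-0.24 to -0.21, adjusted p = 0.057 to 0.122). The libraries overlapped with the controls.

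CDK4 knockdown went the other way. Of the 10 mitotic kinesins 5 were higher and none lower, where 16% of all genes passed (8.46% higher and 7.55% lower), and the median log2 fold change was 0.36 against 0.00 over all genes. KIF20A rose to 537, 620.1 and 555, against 310.4 to 368, median 343, in the controls (log2 fold change 0.74, SE 0.12, adjusted p = 0.000169), and KIF23 rose to 546, 612 and 583, against 397 to 499, median 458 (log2 fold change 0.35, SE 0.09, adjusted p = 0.0077). KIF20B had 332, 313 and 289 (log2 fold change 0.36, SE 0.11, adjusted p = 0.0241). All CDK4-knockdown libraries of these 3 cytokinesis motors lay above all controls.

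KIF14 had 197, 136 and 154 (log2 fold change 0.47, SE 0.15, adjusted p = 0.0308) and KIF4A 224, 323 and 328 (log2 fold change 0.45, SE 0.15, adjusted p = 0.0476), both with 1 or more libraries inside the control range. KIF11 had 338, 346 and 342, above every control, but missed the threshold (log2 fold change 0.37, SE 0.13, adjusted p = 0.0602). KIF2C, KIF18A, KIF15 and KIF22 had log2 fold changes of 0.25, 0.17, 0.15 and -0.05 and did not pass. The calls in CDK4 knockdown depended on the control and on single libraries. With NT4 alone only KIF20A and KIF23 passed. Without CDK4 knockdown replicate 1, KIF14 (0.32, adjusted p = 0.237) and KIF20B (0.31, adjusted p = 0.126) did not pass, and without replicate 2 KIF20B (0.35, adjusted p = 0.0889), KIF23 (0.32, adjusted p = 0.0607) and KIF4A (0.37, adjusted p = 0.228) did not. KIF14 also missed the threshold without NT3 replicate 1, NT4 replicate 1 or CDK4 knockdown replicate 3 (0.39 to 0.50, adjusted p = 0.0524 to 0.0733). KIF4A did so without NT3 replicate 2, any NT4 replicate or CDK4 knockdown replicate 3 (0.36 to 0.47, adjusted p = 0.0567 to 0.207). Of the 5 calls, that of KIF20A passed under all 21 alternatives run (0.68 to 0.78).

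In the dual knockdown all 10 mitotic kinesins were lower than the controls, at a background of 44% (21.5% lower and 22.5% higher). Of these 10 genes 8 fell by more than a log2 fold change of 1, as did 611 of all 11579 genes tested. The median was -1.71 against 0.00 over all genes. For 9 of 10 genes every dual-knockdown library lay below all 18 other libraries of the study, and the exception was KIF22. This held for 0 of 19 other kinesins, and the share of all genes was not counted. The mitotic motors were at 2.23% to 13.9% of the proliferating mean, with a median of 3.71%.

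KIF2C fell to 38.6, 17.5 and 46.05 (log2 fold change -2.58, SE 0.19, adjusted p = 6.8e-10), 17.6% of the control mean. KIF4A fell to 32.01, 51.3 and 28.03 (log2 fold change -2.51, SE 0.15, adjusted p = 2.83e-11), 17.6% of it. KIF20A fell to 82.8, 52.4 and 69.1 (log2 fold change -2.33, SE 0.12, adjusted p = 2.24e-12), 19.97% of it. All dual-knockdown libraries of these 3 genes lay below the whole control range, which was 169 to 211, median 202, for KIF2C, 183 to 242, median 213, for KIF4A and 310.4 to 368, median 343, for KIF20A.

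KIF14 fell to 19.9, 20.7 and 27.03 (log2 fold change -2.32, SE 0.15, adjusted p = 4.02e-11). KIF15 fell to 23.2, 27.3 and 13.01 (log2 fold change -1.84, SE 0.24, adjusted p = 1.81e-06), and KIF11 to 75.1, 111.4 and 81.1 (log2 fold change -1.58, SE 0.13, adjusted p = 3.97e-09). The fewest reads behind these values were 13 for KIF15, 16 for KIF2C and 18 for KIF14 in a single library, so they carry the widest counting error among the 10. KIF20B fell to 78.4, 131 and 99.1 (log2 fold change -1.26, SE 0.11, adjusted p = 4.16e-09) and KIF18A to 56.3, 97.2 and 85.1 (log2 fold change -1.01, SE 0.13, adjusted p = 2.34e-06). KIF22, with 172, 138 and 193 (log2 fold change -0.81, SE 0.11, adjusted p = 6.7e-06), and KIF23, with 267, 314 and 223 (log2 fold change -0.77, SE 0.09, adjusted p = 3.49e-07), fell least and kept 56.7% and 58.99% of the control mean.

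The question of whether the dual knockdown equals its parts was put as a contrast, the dual effect minus the CDK4 effect and the CDK6 effect added up on the log2 scale. Of all genes tested 6.35% departed from the sum, 3.71% below it and 2.63% above it. Of the 10 mitotic kinesins 8 were below the sum and none above, with a median departure of -1.26 against 0.00 over all genes. For KIF20A the sum predicts 111.1% of the control level and the dual knockdown had 19.9% (departure -2.48, SE 0.18, adjusted p = 2.51e-08). For KIF4A the sum predicts 71.7% and 17.5% was found (departure -2.03, SE 0.23, adjusted p = 7.33e-06), and for KIF14 78.4% and 20.0% (-1.97, SE 0.22, adjusted p = 5.06e-06). KIF2C departed by -1.88 (SE 0.30), KIF11 by -1.32 (SE 0.20) and KIF20B by -1.19 (SE 0.16). KIF18A and KIF23 departed by -0.91 (SE 0.20) and -0.88 (SE 0.13). KIF15 (-1.10, SE 0.36, adjusted p = 0.0742) and KIF22 (-0.30, SE 0.17, adjusted p = 0.331) did not pass.

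**Figure D4:**
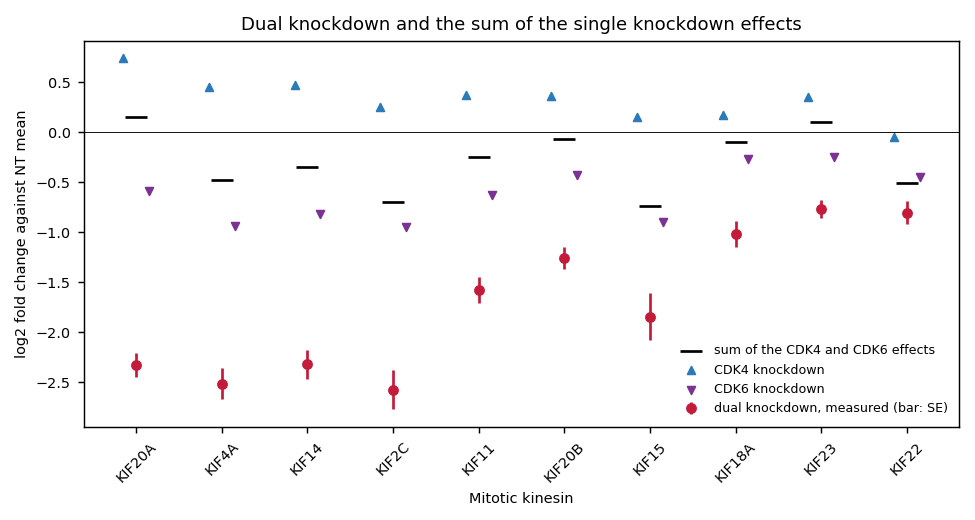
log2 fold change against the control mean of the 10 mitotic kinesins in the CDK4, CDK6 and dual knockdowns (bars: standard error) and their summed single effects (dashes), ordered by departure. The dual value lies below the dash for each gene, by 2.48 for KIF20A at the left and by 0.30 for KIF22 at the right.

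Direct contrasts between knockdowns placed the groups in order. Dual against CDK6 knockdown had 9 of 10 mitotic kinesins lower (background 13%, of which 6.94% lower), with a median of -0.95 and KIF20A at -1.74 (SE 0.14); KIF22 did not pass (log2 fold change -0.35, SE 0.13, adjusted p = 0.0821), and KIF15 did not without CDK6 knockdown replicate 1 or dual knockdown replicate 3 (-0.71 and -0.65, adjusted p = 0.143 and 0.157). CDK6 against CDK4 knockdown had all 10 lower (background 34.8%, of which 17.3% lower), with a median of -1.02, from -1.39 for KIF4A to -0.40 for KIF22. There KIF18A was lost without CDK4 knockdown replicate 1 or 2 or CDK6 knockdown replicate 1 (-0.42 to -0.33, adjusted p = 0.0806 to 0.153), and KIF22 without replicate 3 of either knockdown (-0.34 and -0.30, adjusted p = 0.0924 and 0.127). CCND1 against dual knockdown had all 10 higher (background 20.3%, of which 11.2% higher), with a median of 0.96, from 0.39 for KIF22 to 1.76 for KIF2C; the calls of KIF15 and KIF22 there were lost in 9 and 8 of 16 alternatives. For KIF15 these include leaving out CCND1 knockdown replicate 1 or 3 or dual knockdown replicate 1 or 3 (0.48 to 0.87, adjusted p = 0.0635 to 0.279), and for KIF22 any CCND1 knockdown replicate or dual knockdown replicate 1 or 2 (0.26 to 0.43, adjusted p = 0.0586 to 0.207). Across the irradiated groups the CDK4 knockdown had the highest mean for 8 of 10 genes, the dual knockdown the lowest for 10 of 10, and the CCND1 and CDK6 means lay between the dual and the lower control mean for 10 of 10. CCND1 and CDK6 knockdown were neighbours in that order and their difference was not tested. For the 19 other kinesins the same counts were 4, 3 and 0, and the shares of all genes were not counted.

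Partner genes of the spindle ran beside the motors in the knockdowns. Of 17 mitotic partners 15 were lower in CCND1 knockdown (14.4% of all genes), 15 in CDK6 knockdown (20.8%) and 16 in the dual knockdown (21.5%). In CDK4 knockdown 6 were higher (8.46% of all genes). Their median log2 fold changes were -0.66 in CCND1, -0.69 in CDK6, -2.20 in dual and 0.31 in CDK4 knockdown. BIRC5 (survivin), a passenger subunit that rides with KIF20A, changed by -0.95 in CCND1 and -3.08 in dual knockdown (log2). CENPF rose by 0.63 in CDK4 knockdown. The summed count of the 11 cycle markers, which include MKI67, had group means of 4897 in NT3, 4988 in NT4, 3257 in CCND1, 5946 in CDK4, 2993 in CDK6 and 1534 in dual knockdown. The order of the 6 group means was the same as that of these markers for 4 of 10 mitotic kinesins (KIF4A, KIF14, KIF20B and KIF11); in the other 6 the 2 controls, CCND1 and CDK6 knockdown, or CDK4 knockdown and NT3 changed places. Whether the motors changed beyond the share of cycling cells was not tested.

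Among the other kinesins most of the calls in the knockdowns were rises. Of 19, CCND1 knockdown had 7 higher and 0 lower (background 16.7% and 14.4%), CDK4 knockdown 3 and 0 (8.46% and 7.55%), CDK6 knockdown 9 and 2 (21.1% and 20.8%) and dual knockdown 8 and 2 (22.5% and 21.5%). KIF3B was the one among them that rose in all 4 knockdowns and kept each of these calls under all alternatives run.

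KIF3B, the kinesin-2 subunit that drives transport into cilia, had 1882, 1934 and 1501 in NT3, 2028, 2140.0 and 2169 in NT4 and 2389, 2412 and 2592 in CCND1 knockdown (log2 fold change 0.35, SE 0.07, adjusted p = 0.000356). It had 2931, 2742 and 2587 in CDK4 knockdown (log2 fold change 0.51, SE 0.07, adjusted p = 1.29e-05) and 2530.3, 2711 and 2491 in CDK6 knockdown (log2 fold change 0.42, SE 0.07, adjusted p = 3.03e-05). The dual knockdown had 2709.6, 2858 and 2654 (log2 fold change 0.51, SE 0.07, adjusted p = 2.25e-06). All 12 knockdown libraries lay above all 6 control libraries, and the dual value was below the sum of the single effects (departure -0.42, SE 0.10, adjusted p = 0.0138), a call lost with NT4 alone and without CDK4 knockdown replicate 1 (-0.38, adjusted p = 0.0538).

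KIF3A, its partner, had 454, 481 and 405 in NT3, 474, 364 and 422 in NT4, 604, 541 and 511 in CDK4 knockdown and 501, 706 and 589 in dual knockdown. It was higher in CCND1 (0.33), CDK4 (0.35) and dual knockdown (0.46, SE 0.09, adjusted p = 0.000468), and missed the threshold in CDK6 knockdown (0.22, adjusted p = 0.0711). Its CCND1 call was lost without CCND1 knockdown replicate 2 (0.29, adjusted p = 0.0629) and its CDK4 call without CDK4 knockdown replicate 1 (0.29, adjusted p = 0.102). The third kinesin-2 chain, KIF3C, was higher in CCND1 (0.30), CDK6 (0.28) and dual knockdown (0.24), and all 3 calls were lost with NT4 alone. The CCND1 call of KIF3C was also lost without CCND1 knockdown replicate 3 (0.25, adjusted p = 0.0599), and the dual call without dual knockdown replicate 1 or 2 (0.24 and 0.21, adjusted p = 0.0524 and 0.0869). KIF17 was higher in the same 3 knockdowns (0.42, 0.34 and 0.47), with 138, 146 and 144 in the dual knockdown against 88.6 to 129, median 103.2, and the CCND1 and CDK6 calls were lost with NT4 alone and without replicate 2 of the knockdown (0.36 and 0.26, adjusted p = 0.0527 and 0.127).

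Of the kinesin-3 family, KIF1B, a carrier of mitochondria and synaptic vesicle precursors, was higher in all 4 knockdowns, with log2 fold changes of 0.43 in CCND1, 0.45 in CDK4, 0.40 in CDK6 and 0.52 in dual knockdown. Its controls were 1718, 1985 and 1017 in NT3 and 2021, 1864 and 1943 in NT4, so NT3 replicate 3 was far below the rest. All 4 calls were lost with NT4 alone (in dual knockdown log2 fold change 0.34, adjusted p = 0.0658), and the CDK4 call also without CDK4 knockdown replicate 1 or 2 (0.44 and 0.38, adjusted p = 0.0632 and 0.106). KIF1C had 6237, 6099 and 5992 in CCND1, 6167, 6645 and 6318 in CDK6 and 6339.8, 6737 and 6055 in dual knockdown, and its 3 calls (0.34, 0.41 and 0.40) were likewise lost with NT4 alone. KIF13A was higher in CDK6 knockdown, with 2138, 2261 and 2128 against 1032 to 1899, median 1634 (log2 fold change 0.50, SE 0.08, adjusted p = 4.25e-05), also with NT4 alone. KIF13A (0.30) and KIF13B (0.45) were higher in dual knockdown and KIF13B in CDK6 knockdown (0.48), and these 3 calls were lost with NT4 alone.

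**Figure D5:**
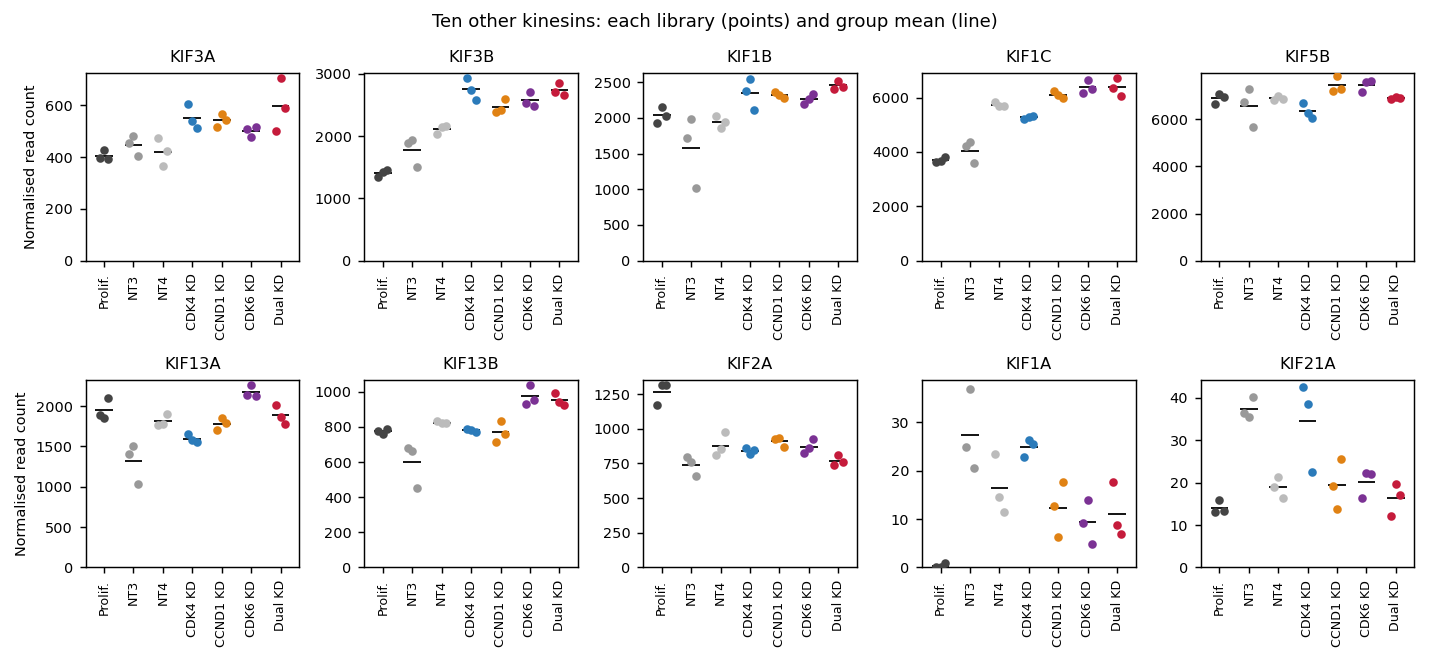
Normalised read counts of 10 other kinesins in each library (points) and group means (lines), on axes that start at 0. For KIF3B all 12 knockdown libraries lie above the controls; for KIF1B and KIF13B NT3 replicate 3, the third point of its group, lies lowest.

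KIF5A, the neuronal kinesin-1 heavy chain, had few reads, and NT3 replicate 3 was the lowest of its 21 libraries. It had 13.5, 14.9 and 2.43 in NT3, 11.1, 21.4 and 16.4 in NT4, 22.7, 19.3 and 20.6 in CDK4, 27.5, 32.6 and 34.5 in CDK6 and 16.6, 6.55 and 13.01 in dual knockdown. The rise in CDK6 knockdown passed (log2 fold change 1.38, SE 0.39, adjusted p = 0.0075) but did not with NT4 alone (log2 fold change 0.95, adjusted p = 0.124). Against the sum of the single effects its dual level was lower (departure -2.21, SE 0.60, adjusted p = 0.0309), a call that was lost in 11 of 26 alternatives.

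KIF1A had 12.8, 6.40 and 17.7 in CCND1, 22.7, 26.4 and 25.5 in CDK4, 9.16, 13.98 and 4.79 in CDK6 and 17.7, 8.73 and 7.01 in dual knockdown. Its fall in CDK6 knockdown (log2 fold change -1.17, SE 0.39, adjusted p = 0.0187) did not pass with a pseudocount of 0.1, with NT4 alone or without CDK6 knockdown replicate 3 (log2 fold change -0.81, adjusted p = 0.154), and its groups overlapped. Against CDK4 knockdown directly, the CDK6 knockdown was lower for KIF1A (log2 fold change -1.43, SE 0.45, adjusted p = 0.0156), a call lost without CDK6 knockdown replicate 3 (-1.07, adjusted p = 0.102). KIF21A (-0.70) and KIF21B (-0.68) were lower in dual knockdown, with overlapping groups, and neither passed with NT4 alone. KIF21A was lost without dual knockdown replicate 1 (-0.51, adjusted p = 0.142). The value of KIF21B rested on dual knockdown replicate 3, without which it was -0.37 (adjusted p = 0.31), and its call was lost in 11 of 20 alternatives, among them edgeR, DESeq2 and leaving out NT3 replicate 1 or 2 or NT4 replicate 2 or 3 (-0.69 to -0.54, adjusted p = 0.0528 to 0.0958). KIFC3, a minus-end motor at cell junctions, was lower in CDK6 knockdown (-0.24), a call lost without CDK6 knockdown replicate 1 (-0.16, adjusted p = 0.0534).

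KIF5B stayed within a narrow range: group values were 7210.4, 7845 and 7286 in CCND1, 6709, 6255 and 6059.5 in CDK4, 7163, 7597 and 7612 in CDK6 and 6857, 6963 and 6889 in dual knockdown. Only the CDK6 call passed among the 4 (log2 fold change 0.15, SE 0.06, adjusted p = 0.0425), and it was lost in 9 of 21 alternatives. KIF2A was higher in CCND1 knockdown (log2 fold change 0.18, SE 0.07, adjusted p = 0.0468), a call lost in 12 of 21 alternatives, and its groups overlapped. KIF16B, KIF27, KIFC2 and KIF9 passed in none of the 4 knockdowns against the controls, with log2 fold changes from -0.39 (KIF27, dual) to 0.36 (KIF27, CDK4).

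In the direct contrasts between knockdowns, 5 of 19 other kinesins were higher and 3 lower in CDK6 than in CDK4 knockdown, at a background of 17.5% and 17.3%. KIF13A (0.45), KIF3C (0.41) and KIF13B (0.32) rose most there, and KIF1A, KIF21A (-0.71) and KIFC3 (-0.39) fell. The call of KIF21A was lost in 10 of 15 alternatives, including 5 of the 6 that left out a library (all but CDK4 knockdown replicate 3; -0.79 to -0.54, adjusted p = 0.0625 to 0.202), and that of KIF13B without CDK4 knockdown replicate 3 or CDK6 knockdown replicate 2 (0.31 and 0.28, adjusted p = 0.0504 and 0.0774). Between dual and CDK6 knockdown KIF5A alone passed, and it was lower (log2 fold change -1.40, SE 0.45, adjusted p = 0.0457), at a background of 6.05% higher and 6.94% lower. Its call was lost in 9 of 15 alternatives. Between CCND1 and dual knockdown KIF21B (0.92) and KIF2A (0.24) were higher and KIF13B (-0.31) lower in CCND1 knockdown, at a background of 11.2% higher and 9.12% lower. All 3 calls depended on single libraries. That of KIF13B was lost in 5 of 6 fits without 1 library (all but CCND1 knockdown replicate 2; -0.33 to -0.26, adjusted p = 0.0651 to 0.143), and that of KIF2A without CCND1 knockdown replicate 1 or 2 or dual knockdown replicate 1 or 3 (0.21 to 0.23, adjusted p = 0.0915 to 0.12). KIF21B was lost without CCND1 knockdown replicate 1 or 3 (0.82 and 0.87, adjusted p = 0.116 and 0.0959) and without dual knockdown replicate 3, where it was 0.61 (adjusted p = 0.199).

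Without NT3 replicate 3, the other kinesins counted 7 higher and 0 lower in CCND1, 3 and 2 in CDK4, 9 and 2 in CDK6 and 8 and 5 in dual knockdown. With NT4 alone as control they counted 2 and 0 in CCND1, 2 and 0 in CDK4, 2 and 1 in CDK6 and 3 and 0 in dual knockdown. The shares of all genes that passed under these settings are not given here.

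Partners of the transport motors were tested as 20 adaptors and light chains. Of these, 9 were higher and 3 lower in the senescent controls (32.6% and 36.1% of all genes), 6 and 1 in CCND1 knockdown (16.7% and 14.4%), 1 and 0 in CDK4 knockdown (8.46% and 7.55%), 8 and 2 in CDK6 knockdown (21.1% and 20.8%) and 8 and 0 in dual knockdown (22.5% and 21.5%). Their median log2 fold changes lay between 0.01 in CCND1 knockdown and 0.14 in the senescent controls. KLC1, a light chain of kinesin-1, changed by 0.46 (SE 0.04) in dual knockdown, TRAK1, the adaptor that ties kinesin-1 to mitochondria, by 0.48 (SE 0.06), and TRAK2 by 0.44 (SE 0.08). Of 21 tested subunits and adaptors of dynein and dynactin, the motor that runs opposite to most kinesins, 12 were higher and 0 lower in dual knockdown. The shares of all genes were the same 22.5% and 21.5%, and the median was 0.22. BICD2, a cargo adaptor, changed by 0.54 (SE 0.06) in dual knockdown. Of the same 21 genes 10 were higher in CDK6 (21.1% of all genes), 7 in CCND1 (16.7%) and 4 in CDK4 knockdown (8.46%). In each of these knockdowns 0 were lower, and the medians were 0.16, 0.13 and 0.04. In the senescent controls 8 were higher and 4 lower (32.6% and 36.1%). The summed count of the dynein and dynactin list had group means of 55520 in NT3, 60980 in NT4, 64424 in CCND1, 60991 in CDK4, 65076 in CDK6 and 68860 in dual knockdown. Calls of the partner lists with NT4 alone are not given here. Of 11 tested tubulins, the track itself, 8 were lower and 1 higher in the senescent controls (36.1% and 32.6% of all genes), led by TUBA1B (-1.55), and TUBA4A (1.38) was the one that rose. In dual knockdown 3 tubulins were higher and 5 lower (22.5% and 21.5% of all genes), with TUBA1A at 0.83 (SE 0.06).

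The 8 kinesin symbols under the minimum were KIFC1, KIF2B, KIF26A, KIF26B, KIF5C, KIF12, KIF19 and KIF25. KIF26B came nearest, with 1 library at 10 or more (its highest, 10.4), and of the members KIF1A was nearest to the limit, with 13 libraries at 10 or more. KIFC1, a minus-end motor that focuses spindle poles and is normally made in dividing cells, was listed at 0, 0 and 5.32 in the proliferating libraries and at 0 in all but 2 irradiated ones, so its listing gives no measure of its change. KIF2B was listed at 0 in all 21 libraries. KIF18B, KIF24, KIF6 and KIF7 are not among the 37 symbols listed, so they could not be analysed here. No gene in the deposited table has a gene number (Entrez ID) above 140467.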

How the data were processed

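Poly(A) RNA-seq of 21 libraries was used, 3 in each of 7 groups. The deposited table holds 1 normalised signal per gene and library, read counts divided by a size factor by the authors. Per the submitters' processing notes, the tools were Trimmomatic 0.38.1, HISAT2 2.2.1, featureCounts 2.0.3, FastQC 0.74, MultiQC and DESeq2 2.11.40.8, with hg38. The annotation, the strand setting and the handling of multi-mapped reads are not given in the sources used here, so antisense and near-identical genes could share reads. Dividing each library by its smallest step gave whole reads for 100% of its values, within 0.01 of a whole number.

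Groups came from the sample labels and the column headers. The headers carry a running code and no replicate number, so replicate numbers follow column order and are only names. Genes with a value of 10 or more in 3 or more libraries (11579) were tested with limma 3.58.1 (R 4.3.3) on log2 values (pseudocount 1 added first), in 1 fit over all 7 groups with a trended prior, with Benjamini-Hochberg adjustment over all genes and a threshold of 0.05. The test recovered known changes in simulated counts. The control was the mean of the NT3 and NT4 group means. Where libraries of groups are said not to overlap, the share of all genes that did so was not counted. The alternatives run were median centring, quantile normalization, pseudocounts of 0.1 and 10, no low-count filter, a mean of at least 100, NT3 or NT4 alone, only the groups compared, each library left out, a block on sets of header codes (added after seeing the data), and edgeR 4.0.16 and DESeq2 1.42.0 on the whole reads.

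The kinesins and the partner and marker lists were chosen with earlier results of these data known. Any kept kinesin could be named. Values per library were given for the mitotic kinesins, for KIF5B, KIF1C and KIF3A and, in each comparison, for the other kinesins with the 3 largest rises and 3 largest falls that passed; of each partner list at most the 3 largest changes were named.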

Additional observations from a re-analysis of the deposited data

Results flagged for a closer look

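NT3 replicate 3 lay far below the other 5 non-targeting libraries for 3 of the 29 kinesins, by Dixon's test over the 6 non-targeting libraries, which flags about 1 in 20 groups by chance. KIF5B had 5687 normalised reads there, against 6751 to 7284 in the other 5. KIF3C had 495 against 688 to 767, and KIF1B had 1017 against 1718 to 2021.

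For 10 kinesins the effect of knocking down CDK4 and CDK6 together differed from the sum of the single effects in limma's contrast (adjusted p under 0.05 over all genes). On the log2 scale the departure was -2.48 for KIF20A, -2.03 for KIF4A, -1.97 for KIF14, -1.88 for KIF2C, -1.32 for KIF11, -1.19 for KIF20B, -0.91 for KIF18A and -0.88 for KIF23 among the mitotic motors. Among the other kinesins it was -2.21 for KIF5A, which had few reads, and -0.42 for KIF3B. Each of the 10 lay below the sum.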

How the results depend on the processing

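No call of a kinesin changed direction under any alternative run. Of 143 calls of single kinesins over the 10 comparisons, 87 passed under every alternative and 56 were lost in 1 or more; 31 were lost with NT4 alone, 2 with NT3 alone and 24 in fits of the compared groups only. The counts of mitotic kinesins called stayed within 1.5 times in 8 of 10 comparisons. In CDK4 knockdown against the controls the count of 5 became 3 without a filter, 2 with NT4 alone and 3 with the compared groups only, and 2 to 5 with 1 library left out. In NT4 against NT3 the count of 0 became 1 with a mean of at least 100, median centring, quantile normalization, edgeR and DESeq2, and 0 to 1 with 1 library left out.

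Counts of other kinesins moved more. In CCND1 knockdown the count of 7 became 12 with NT3 alone, 2 with NT4 alone and 4 with the compared groups only (4 to 9 with 1 library left out). In CDK4 knockdown the count of 3 became 7 with NT3 alone and 1 with the compared groups only (1 to 5 with 1 library left out). In CDK6 knockdown the count of 11 became 3 with NT4 alone and 7 with the compared groups only (9 to 12 with 1 library left out), and in dual knockdown the count of 10 became 3 with NT4 alone (9 to 13). Against the sum of the single effects the count of 2 became 1 with a mean of at least 100, 6 with NT3 alone, 0 with NT4 alone, 1 with the compared groups only and 1 with DESeq2 (0 to 2 with 1 library left out). In dual against CDK6 knockdown the count of 1 became 0 with a pseudocount of 0.1, without a filter, with a mean of at least 100 and with quantile normalization, and 2 with the compared groups only (0 to 2). In the senescent controls the count of 11 became 7 with a mean of at least 100, which tests fewer kinesins. In NT4 against NT3 the count of 7 became 2 with the compared groups only (3 to 9), in CCND1 against dual knockdown the count of 3 became 0 to 2 with 1 library left out, and in CDK6 against CDK4 knockdown the count of 8 became 6 to 7. Apart from the smaller number tested, the cause was not tested. Median centring raised log2 fold changes of the senescent controls by 0.11. The headers' codes run in 3 consecutive sets, each with 1 library of the 6 irradiated groups, and nothing given says what the sets are. Deviations from the group means, over 11579 genes, were only weakly correlated within sets. Of 45 pairs of different groups in a set, 1 had a correlation over 0.1 (-0.11 to 0.10, median 0.04). In 90 pairs across sets the correlations were -0.14 to 0.16, with a lower median of -0.02. Of 18 libraries, 13 correlated best with their own set, so a small shared part is not excluded. The main fit did not include the sets. A replicate block on these sets, added after seeing the data, gave 1 mitotic kinesin in NT4 against NT3 (0 without it) and 0 other kinesins in dual against CDK6 knockdown (1 without it). It lost KIF2A in CCND1, KIF4A in CDK4 and KIF5A in dual against CDK6 knockdown and added KIF22 in NT4 against NT3, KIF13A and KIF5B in CCND1 knockdown and KIF15 in the departure from the sum. Over all genes, more passed with the block than without it in every comparison. The numbers were 7976 against 7945 in the senescent controls and 812 against 735 in the departure from the sum. Reads limit KIF1A, KIF5A and KIF21A most, with at most 52 in a library.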
